A study of Mus musculus with 18 samples.

Results

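The 10 core circadian clock genes examined here were Arntl, Clock, Npas2, Per1, Per2, Per3, Cry1, Cry2, Nr1d1 and Nr1d2. They were chosen by symbol from the 24537 genes listed in both count tables, and each of the 10 was present in both, counted over the same RefSeq transcript, and passed the filter on low counts that left 14275 genes. Poly(A) RNA of whole livers from male C57BL6 mice was sequenced, with 1 library per mouse and 18 libraries in all. By their labels the mice were young or old, and for 9 weeks they received normal chow (ND) or food rich in fat (HFD), which gave young ND (n = 4), old ND (n = 5), young HFD (n = 5) and old HFD (n = 4). All 4 groups were of the same strain and sex, the labels name no transgene or drug, and the methods of the study give free access to food and a light-dark cycle. The clock time at which livers were taken is not given in the sources used here.

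The mammalian clock is a feedback loop of transcription. ARNTL (also called BMAL1) pairs with CLOCK or its relative NPAS2, binds E-box sequences and switches on the Per, Cry and Nr1d genes. PER and CRY proteins then block the activator pair, while the NR1D proteins (REV-ERBα and REV-ERBβ) compete with ROR receptors at ROR elements and repress Arntl, Clock and Npas2. In mouse liver the activator transcripts and the Nr1d, Per and Dbp transcripts therefore crest at nearly opposite times of day, Nr1d1 first, then Dbp, then Per3 and the other Per genes, and Cry1 crests later than the Per genes. Feeding time sets the phase of the liver clock, and high-fat feeding is known to alter feeding rhythm in mice. With 1 time point per mouse of unknown hour, a shift of phase, a change of amplitude and a different hour of collection cannot be told apart in these data.

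RefSeq promoters (GRCm38.p6, 250 bases before to 50 bases after each start) were found for 9 of the 10 genes, 13 promoters in all, and searched on both strands. They are shown for the motifs through which the loop is known to act, since the genes below fall into arms by those inputs. Capitals mark the motif, and each sequence is read 5′ to 3′ on the strand of its gene. The E-box CACGTG was in Per1 and Cry1 and in 7.15% of all 32851 promoters. The RORE core TAGGTCA was in Arntl and in 2.61% of promoters, and the D-box TTATGTAA, the element bound by DBP and TEF, was in Per3 in 2 copies and in 0.938% of promoters. The related E-box variant CACGTT was in Cry1, Cry2 and Nr1d1 and in 4.68% of promoters. A match is a match of letters only.
Arntl, chr7:113207530-113207559, plus strand, 30 bases within the counted transcript: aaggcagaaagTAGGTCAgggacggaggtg
Per1, chr11:69098699-69098948, plus strand, 250 bases before a start upstream of the counted transcript: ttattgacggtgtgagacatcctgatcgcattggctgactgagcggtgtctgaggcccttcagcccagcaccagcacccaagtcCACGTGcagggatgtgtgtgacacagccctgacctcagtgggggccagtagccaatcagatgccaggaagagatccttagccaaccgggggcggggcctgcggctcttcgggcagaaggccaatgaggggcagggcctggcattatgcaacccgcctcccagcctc
Cry1, chr10:85185055-85185304, minus strand, 250 bases before the start: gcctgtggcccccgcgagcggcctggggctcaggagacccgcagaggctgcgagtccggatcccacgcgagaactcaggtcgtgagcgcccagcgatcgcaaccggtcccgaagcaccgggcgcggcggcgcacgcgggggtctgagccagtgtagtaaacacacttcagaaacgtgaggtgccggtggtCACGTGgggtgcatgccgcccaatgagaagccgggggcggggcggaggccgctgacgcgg
Per3, chr4:151044666-151044915, minus strand, 250 bases before the start: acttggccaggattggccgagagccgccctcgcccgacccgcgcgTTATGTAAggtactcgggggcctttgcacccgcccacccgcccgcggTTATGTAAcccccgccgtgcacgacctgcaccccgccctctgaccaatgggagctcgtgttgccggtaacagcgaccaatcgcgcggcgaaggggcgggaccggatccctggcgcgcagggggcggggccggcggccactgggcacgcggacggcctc

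Libraries held 20253719 to 36427856 counts. The ND libraries were counted with reads on the gene's strand only and the HFD libraries without regard to strand, and the 2 sets lie in tables of their own. The effects of diet and of counting on a gene cannot be told apart. Age was compared within a table. The exons of Nr1d1 overlap those of Thra on the opposite strand by 263 bases, those of Cry2 overlap D930015M05Rik by 295 and those of Arntl overlap Gm45355 by 33, whereas the other 7 genes have no such overlap. Transcripts of hepatocytes dominated the livers, with 6 markers summing, in CPM (counts scaled to library size), to 72338 to 80650 in young ND, 84441 to 115107 in old ND, 73335 to 96727 in young HFD and 57760 to 70524 in old HFD. Markers of T cells summed to 2.68 to 3.52 CPM in young ND, 3.49 to 10.3 in old ND, 2.07 to 3.68 in young HFD and 4.47 to 21.3 in old HFD. Those of macrophages summed to 270 to 398, 341 to 476, 255 to 419 and 461 to 691 CPM in the same order, and those of erythroid cells to 432 to 697, 233 to 466, 738 to 1401 and 797 to 1566. Old HFD replicate 4 stood apart over all genes, since its log2 CPM correlated at 0.963 to 0.970 with the other old HFD livers, which correlated at 0.983 to 0.991 with each other. Old ND replicate 5 correlated at 0.975 to 0.982 with the other old ND livers, which correlated at 0.988 to 0.991 with each other. In whole tissue, a smaller share of cells that express a gene and less RNA per cell cannot be told apart, and the part of cell makeup in the results below was not tested.

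Per length of transcript (FPKM, counts scaled to library size and transcript length), the 10 genes spanned a wide range. Nr1d1 had the highest level in each group, from 38.3 ± 3.52 (SD, n = 5) in young HFD to 63.8 ± 7.72 (SD, n = 5) in old ND, followed by Nr1d2 at 20.6 to 27. Cry2 (9.14 to 10.2) and Clock (6.68 to 10.1) had levels that overlapped each other, and Per1 (7.54) had a higher mean than Clock (6.68) in young HFD. Arntl (2.76 to 6.71), Per1 (2.46 to 7.54), Per2 (3.24 to 6.47), Per3 (1.68 to 4.79) and Cry1 (2.5 to 4.19) overlapped each other, and their order changed with the group. Npas2 was lowest, at 0.299 to 0.656 FPKM and 17 to 81 counts per library, so its values carry the largest counting error of the 10.

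**Figure D1:**
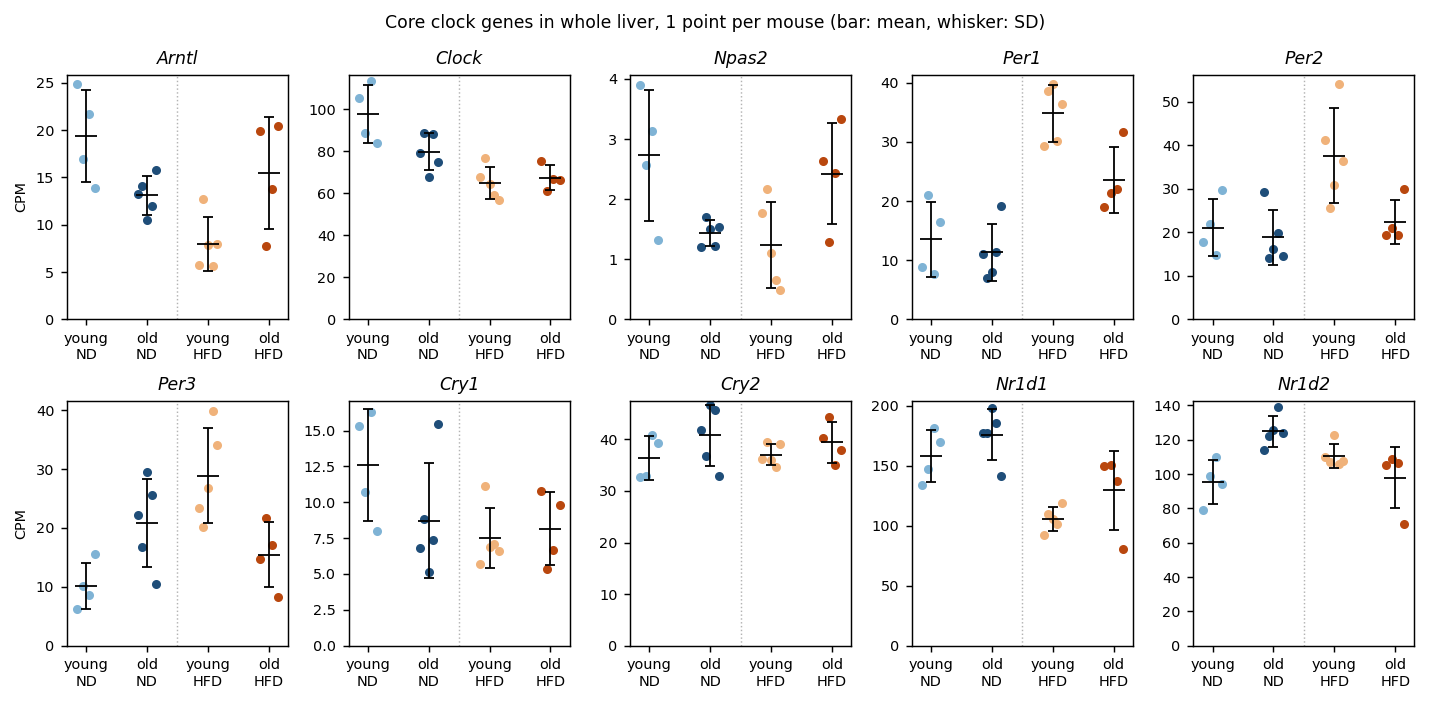
CPM of each core clock gene in each of the 18 livers, with 1 point per mouse, the group mean as a bar and the SD as whiskers, and a dotted line between the ND and HFD tables. The young HFD points of Arntl lie at 5.61 to 12.7 CPM, below all young ND points at 13.9 to 24.9, and the Per1 points show the reverse.

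To ask how age changed the clock genes on the normal diet, old ND was compared with young ND. Of the 10 genes, 1 rose and none fell at an adjusted p under 0.05 (edgeR), against 11.4% of all genes called in this comparison (6.89% higher and 4.52% lower), and 4 of 10 had an unadjusted p under 0.05 against 28.1% of all genes. The gene that rose was Nr1d2, which encodes REV-ERBβ. It measured 78.9, 98.6, 110 and 94.4 CPM in young ND and 114, 122, 125, 139 and 124 CPM in old ND. The groups did not overlap, as in 14.5% of genes, and the log2 fold change was 0.39 ± 0.11 (SE, adjusted p = 0.0332). The adjusted p rose to at most 0.103 when young ND replicates 1, 2 or 4 or old ND replicates 3 or 4 were left out singly, and each of these omissions ended the call.

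The 3 activators had lower means in old ND, but none passed the test. Npas2 had a log2 fold change of -0.92 ± 0.37 (adjusted p = 0.115), Arntl of -0.56 ± 0.27 (adjusted p = 0.181) and Clock of -0.30 ± 0.11 (adjusted p = 0.0745). Arntl measured 24.9, 17.0, 21.7 and 13.9 CPM in young ND and 13.2, 14.1, 10.4, 12.0 and 15.8 CPM in old ND, so young ND replicate 4 lay among the old mice. Per3 measured 6.15, 10.1, 8.68 and 15.5 CPM in young ND and 22.1, 16.7, 29.5, 25.5 and 10.5 CPM in old ND. Its log2 fold change of 1.04 ± 0.34 narrowly missed the threshold (adjusted p = 0.0546), and old ND replicate 5 and young ND replicate 4 were the libraries within the range of the other age. For Per1 (-0.26 ± 0.30), Per2 (-0.17 ± 0.26), Cry1 (-0.53 ± 0.30), Cry2 (0.16 ± 0.10) and Nr1d1 (0.15 ± 0.15), the log2 fold changes lay within 2 SE of 0. Without old ND replicate 5, Cry1 was -0.83 with an adjusted p of 0.045.

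The same question was then asked in the mice on HFD. Again 1 of the 10 genes rose and none fell, against 18.1% of all genes called (11.6% higher and 6.51% lower), and 4 of 10 had an unadjusted p under 0.05 against 30.7% of all genes. The gene was Arntl, the obligate activator. It measured 5.73, 12.7, 7.82, 5.61 and 8.0 CPM in young HFD and 19.9, 7.77, 13.8 and 20.4 CPM in old HFD. Old HFD replicate 2 lay within the young range and the other 3 old livers lay above it, so the groups overlapped, as for all 10 genes in this comparison, while 18.4% of all genes did not overlap. The log2 fold change was 0.96 ± 0.27 (adjusted p = 0.0202, edgeR), a 1.95-fold higher level. The call was lost under voom, with a replicate block, in a fit of the HFD groups alone, and without young HFD replicates 1 or 4 or old HFD replicates 1 or 4, with an adjusted p of at most 0.0795.

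The other changes with age on HFD did not pass the test. Npas2 measured 1.77, 2.18, 1.11, 0.658 and 0.497 CPM in young HFD and 2.64, 1.3, 2.44 and 3.33 CPM in old HFD (log2 fold change 0.97 ± 0.37, adjusted p = 0.0787). Per3, whose transcripts peak ahead of those of the other Per genes, measured 23.3, 20.1, 26.8, 39.9 and 34.0 CPM in young HFD and 14.7, 21.6, 17.2 and 8.34 CPM in old HFD (-0.90 ± 0.32, adjusted p = 0.0674). Old HFD replicate 2 was the only old library within the young range. Per2, at 41.2, 25.6, 30.9, 54.2 and 36.3 CPM in young HFD and 19.5, 21.1, 19.3 and 29.9 CPM in old HFD, had a log2 fold change of -0.75 ± 0.25 (adjusted p = 0.0509). Per1 (-0.57 ± 0.29), Nr1d1 (0.30 ± 0.15), Nr1d2 (-0.17 ± 0.11), Cry1 (0.13 ± 0.30), Cry2 (0.09 ± 0.10) and Clock (0.06 ± 0.11) also had an adjusted p above 0.05. For Nr1d1 this rested on old HFD replicate 4, since without it the log2 fold change was 0.48 with an adjusted p of 0.00849.

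**Figure D2:**
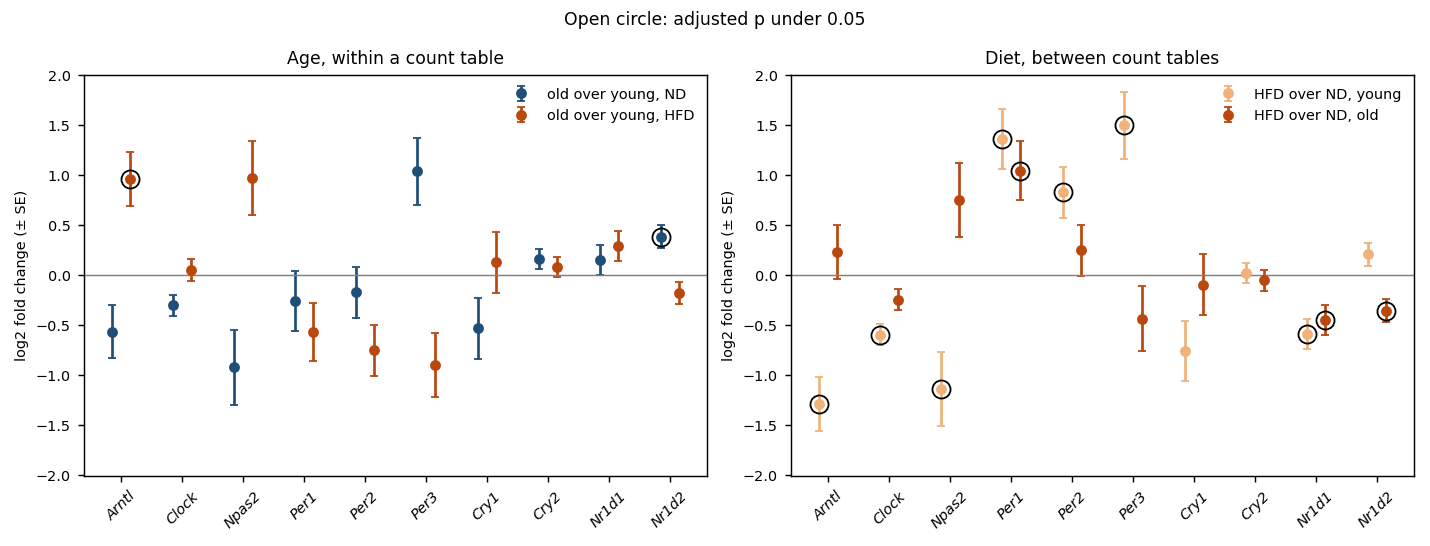
Log2 fold change of each gene with its SE, for old over young within each table (left) and HFD over ND between the tables (right), with an open circle at an adjusted p under 0.05. Arntl and Npas2 lie below 0 on ND and above 0 on HFD with age, at -0.56 and 0.96 for Arntl, and Per3 the other way, at 1.04 and -0.90.

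The signs of the age differences were set against each other by diet. In 6 of the 10 genes, namely Arntl, Clock, Npas2, Cry1, Per3 and Nr1d2, the sign on ND was opposite to that on HFD, and in the other 4 it was the same, while 31.8% of all genes had opposite signs. On HFD, Clock and Cry1 lay within 1 SE of 0, and both changed sign without old HFD replicate 1. The test of this difference is the interaction, in which a constant effect of the table on a gene cancels. None of the 10 passed at an adjusted p under 0.05 (edgeR), against 0.126% of all genes, which is 18 of 14275. At an unadjusted p under 0.05 there were 5 of 10 (Arntl, Clock, Npas2, Per3 and Nr1d2) against 11.6% of all genes. DESeq2 called 4 of them and voom called 1, and no share of all genes was computed for either of those fits. The difference between the age effects was -1.94 ± 0.47 for Per3 (edgeR adjusted p = 0.118), 1.52 ± 0.38 for Arntl (adjusted p = 0.128), 1.89 ± 0.53 for Npas2 (adjusted p = 0.152) and -0.56 ± 0.16 for Nr1d2 (adjusted p = 0.158). Clock followed at 0.35 ± 0.15 (adjusted p = 0.378). Averaged over the diets, no gene of the 10 changed with age against 28% of all genes called, and Per2 (-0.46 ± 0.18, adjusted p = 0.0683) and Nr1d1 (0.22 ± 0.11, adjusted p = 0.122) had an unadjusted p under 0.05, which 39.2% of all genes had. Without old HFD replicate 4, 3 genes were called in this average.

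To ask how the high-fat diet changed the clock genes in young mice, young HFD was compared with young ND, with the limit that diet and table coincide. The test was passed by 7 of the 10 genes, 3 higher and 4 lower, against 20.1% of all genes called (13.8% higher and 6.29% lower), and 8 of 10 had an unadjusted p under 0.05 against 30.7%. The 3 activators fell. Arntl fell to 0.41 of its ND level (log2 fold change -1.29 ± 0.27, adjusted p = 0.00179) and Npas2 to 0.455 (-1.14 ± 0.37, adjusted p = 0.0375). Clock measured 105, 88.8, 114 and 84.2 CPM in young ND and 67.6, 76.7, 64.4, 59.3 and 56.8 CPM in young HFD (-0.59 ± 0.11, adjusted p = 0.000271). Arntl and Clock did not overlap between the groups, whereas Npas2 did.

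The 3 Per genes, whose proteins join CRY in blocking the activators, rose. Per1 measured 8.88, 21.1, 7.72 and 16.5 CPM in young ND and 29.3, 38.6, 39.7, 30.2 and 36.4 CPM in young HFD. This was a 2.57-fold higher level (log2 fold change 1.36 ± 0.30, adjusted p = 0.00306) with no overlap. Per3 was 2.84-fold higher (1.50 ± 0.34, adjusted p = 0.00335), also with no overlap, and Per2 was 1.78-fold higher (0.83 ± 0.26, adjusted p = 0.0287) with overlap. Nr1d1, the repressor of Arntl, fell (-0.58 ± 0.15, adjusted p = 0.00766). It measured 134, 147, 182 and 170 CPM in young ND and 92.4, 109, 105, 102 and 119 CPM in young HFD, while Thra, which shares its 263 bases of exon on the other strand, rose by 0.96 ± 0.13 on the log2 scale (13.8 to 17.5 CPM in young ND and 28.6 to 32.1 CPM in young HFD). Nr1d2 (0.21 ± 0.11, adjusted p = 0.217), Cry1 (-0.75 ± 0.30, adjusted p = 0.0929) and Cry2 (0.02 ± 0.10, adjusted p = 0.908) did not pass. In all, 5 of the 10 genes did not overlap between the groups, against 28% of all genes. Arntl, Clock, Per1, Per3 and Nr1d1 kept their call in each of the 28 alternatives. The call of Npas2 was lost with a replicate block, in a fit of the young groups alone, and without young ND replicates 1, 2 or 3 or young HFD replicates 3, 4 or 5 (adjusted p of at most 0.132). That of Per2 was lost in the fit of the young groups alone and without young ND replicates 1, 2 or 3 or young HFD replicates 1 or 4 (at most 0.104).

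In old mice, 3 of the 10 genes differed between the diets, 1 higher and 2 lower, against 32.1% of all genes called (19.3% higher and 12.8% lower), and 4 of 10 had an unadjusted p under 0.05 against 42.8%. Per1 was 2.07-fold higher in old HFD (log2 fold change 1.05 ± 0.30, adjusted p = 0.0127) and kept its call in each of the 28 alternatives. It measured 11.1, 6.99, 8.06, 11.4 and 19.2 CPM in old ND and 19.0, 21.3, 22.0 and 31.7 CPM in old HFD, with a narrow overlap from old ND replicate 5. Nr1d2 fell (-0.35 ± 0.11, adjusted p = 0.0227), at 105, 109, 107 and 71.1 CPM in old HFD against 114 to 139 in old ND with no overlap, as in 21.6% of all genes. Nr1d1 fell as well (-0.44 ± 0.15, adjusted p = 0.0315), at 150, 150, 137 and 80.6 CPM in old HFD against 177, 178, 198, 186 and 141 in old ND, and Thra was 1.22 ± 0.13 higher on the log2 scale. The call of Nr1d2 was lost under voom, in the fit of the old groups alone, and without old ND replicate 4 or old HFD replicate 4 (adjusted p of at most 0.0904). Without old HFD replicate 4 the log2 fold change was -0.26 for Nr1d1 and -0.21 for Nr1d2. The call of Nr1d1 was lost in the fit of the old groups alone and without old ND replicates 2, 3 or 4 or old HFD replicates 3 or 4 (at most 0.102). The log2 fold changes were 0.24 ± 0.27 for Arntl, -0.24 ± 0.11 for Clock, 0.76 ± 0.37 for Npas2, 0.25 ± 0.26 for Per2, -0.43 ± 0.32 for Per3, -0.09 ± 0.30 for Cry1 and -0.05 ± 0.10 for Cry2, with adjusted p above 0.05.

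To summarise the arms in each mouse, the mean log2 CPM of Per1, Per2, Per3, Nr1d1 and Nr1d2 was subtracted from that of Arntl, Clock and Npas2. This difference of arms is a description and was given no test. It was -0.22, -1.22, -0.54 and -1.82 in young ND, and -1.96, -1.32, -1.92, -1.96 and -1.49 in old ND. It was -2.45, -1.86, -2.66, -3.23 and -3.14 in young HFD, and -1.28, -2.33, -1.61 and -1.03 in old HFD. The young ND livers spread over the widest range, and young HFD lay lowest, overlapping old ND by replicate 2 and old HFD by old HFD replicate 2. The mean fell by 0.78 with age on ND and was 1.11 higher with age on HFD, fell by 1.72 with HFD in young mice and was 0.17 higher in old mice. The last value was -0.0067 without old HFD replicate 4 and 0.43 without old HFD replicate 2. In young mice the activators were thus lower and the Per genes higher with HFD. Nr1d1, which crests before the Per genes, fell with the activators, and Nr1d2 did not pass. Whether a different phase had a part in this was not tested, and diet and table coincide. Cry1 and Cry2 were left out of both arms, since Cry1 crests later than the other repressors and Cry2 is only weakly rhythmic, and with HFD in young mice Cry1 had a log2 fold change of -0.75 ± 0.30 and Cry2 of 0.02 ± 0.10. With age the mean difference of the arms had opposite signs on ND and HFD, and the interaction passed for none of the genes in the edgeR fit.

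**Figure D3:**
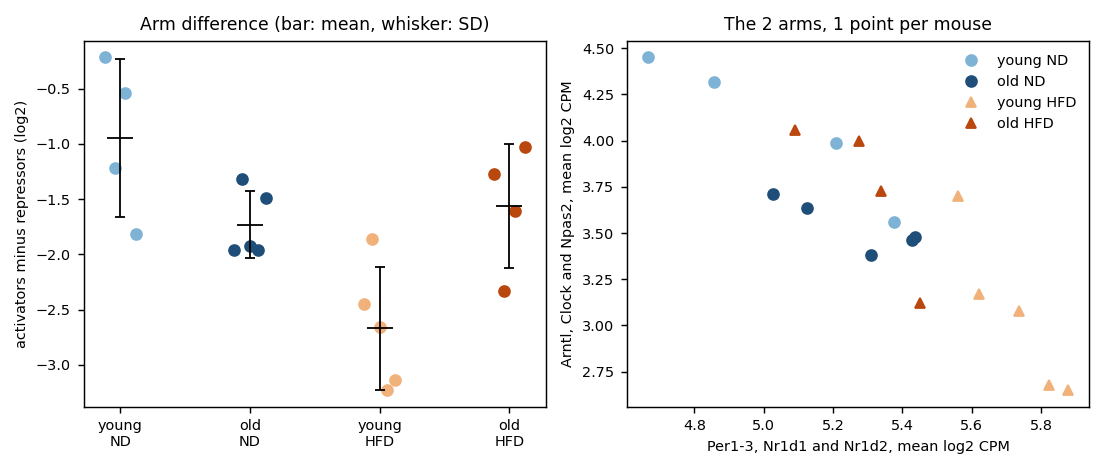
Left, the activator mean minus the repressor mean (log2 CPM) in each liver by group, with the mean as a bar and the SD as whiskers. Right, the activator mean against the repressor mean, 1 point per mouse, where the young HFD livers lie to the lower right, 4 of them with an arm difference of -2.45 or lower.

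To ask whether mice of the same group differed along a common axis, the deviation of each library from the mean of its group (log2 CPM) was correlated between Arntl and each of the other 9 genes over 18 libraries. P values came from 100000 two-sided permutations of Arntl within groups and were adjusted over the 9 genes. Cry1 moved with Arntl most closely (Pearson r = 0.818, permutation p = 5e-05, adjusted p = 0.00045, Spearman rho = 0.839). Per3 moved against it (r = -0.743, permutation p = 0.00086, adjusted p = 0.00387, rho = -0.773). Npas2 (r = 0.639, rho = 0.635, permutation adjusted p = 0.0414) and Clock (r = 0.608, rho = 0.614, permutation adjusted p = 0.0327) moved with it. Per2 (r = -0.403), Nr1d2 (r = -0.376), Nr1d1 (r = -0.334), Cry2 (r = -0.266) and Per1 (r = 0.06) did not pass by Pearson correlation in this permutation test, although Per2 passed by rank (rho = -0.542, adjusted p = 0.0497). By rank Per2 passed neither within the ND table (exact permutation adjusted p = 0.18) or the HFD table (0.464) nor without the 2 libraries farthest from the median (rho = -0.462, permutation adjusted p = 0.357).

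Within the ND table of 9 libraries, r with Arntl was 0.883 for Cry1 (exact permutation test, adjusted p = 0.0125), -0.924 for Per3 (0.00625), 0.787 for Npas2 (0.099) and 0.658 for Clock (0.191). Within the HFD table of 9 libraries, it was 0.914 for Cry1 (exact permutation test, adjusted p = 0.075), -0.718 for Per3 (0.224), 0.592 for Npas2 (0.234) and 0.652 for Clock (0.224). The libraries farthest from the median of Arntl were old HFD replicate 2 and young HFD replicate 2. Without both, r over 16 libraries was 0.794 for Cry1 (permutation adjusted p = 0.00441) and -0.736 for Per3 (0.023), and both held. It was 0.334 for Npas2 (permutation adjusted p = 0.483) and 0.443 for Clock (0.337). These 2 relations did not pass without both libraries, which are HFD livers, while r was higher in the ND table than over all 18 libraries.

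**Figure D4:**
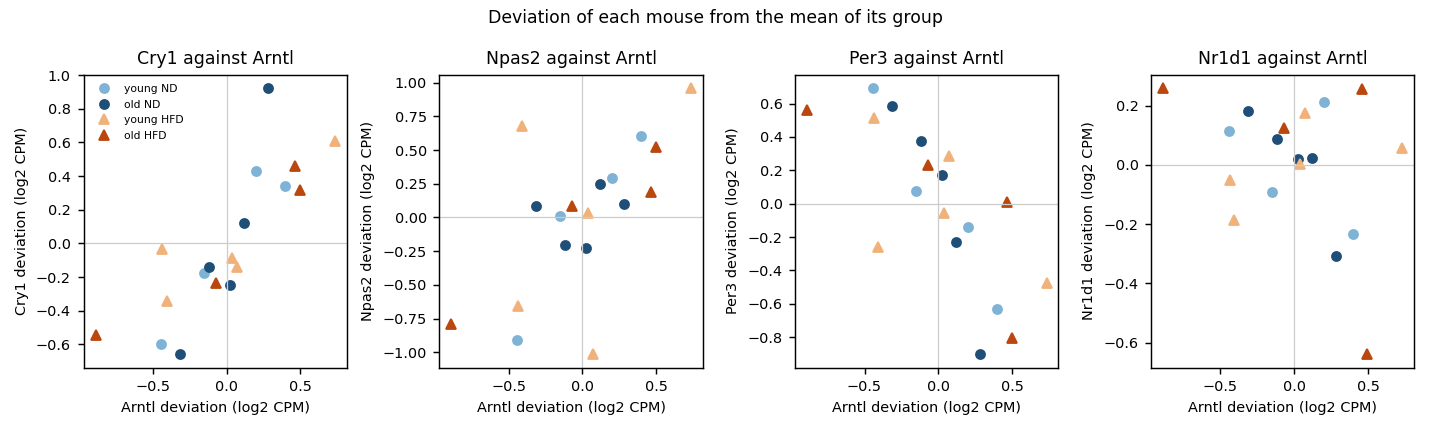
Deviation of each mouse from the mean of its group in log2 CPM, for Cry1, Npas2, Per3 and Nr1d1 (vertical) against Arntl (horizontal), circles for ND and triangles for HFD. Cry1 rises with Arntl (r = 0.818) and Per3 falls (r = -0.743), while Nr1d1 shows no passing relation (r = -0.334).

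Among all 14274 other tested genes, ranked by the same correlation as a description, Cry1 had rank 4 from the top. The genes above it were Pnrc1 (r = 0.852), Lgalsl (0.843) and Rnd1 (0.843), and Ddc (0.817) followed. The lowest were Slc5a6 (-0.850), Dbp (-0.812), Epha1 (-0.808), Ankmy2 (-0.804) and Eef2k (-0.780). Dbp, the output factor driven directly by the activators through E-boxes, thus had rank 2 from the bottom, and its relative Tef had rank 8 (-0.769).

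The output and accessory genes of the clock were read from lists. Of the PAR bZIP factors and E4BP4 (Dbp, Tef, Hlf and Nfil3), which act on D-boxes, none of 4 was called with age on ND, where 11.4% of all genes were, and 1 was lower with age on HFD, where 6.51% of all genes were, namely Hlf (log2 fold change -0.42 ± 0.12, adjusted p = 0.0172), whose call was lost without old HFD replicates 3 or 4. In young mice 2 of 4 rose with HFD, Dbp by 1.33 ± 0.42 on the log2 scale (adjusted p = 0.0333) and Tef by 0.46 ± 0.16 (adjusted p = 0.0448), where 20.1% of all genes were called, and in old mice none of 4 was called, where 32.1% of all genes were. The call of Dbp was lost without young ND replicates 1, 2 or 3 or young HFD replicates 1, 3, 4 or 5 (adjusted p of at most 0.0913). That of Tef was lost without the same 7 libraries and without old ND replicates 1, 3 or 4 or old HFD replicate 3 (at most 0.154). Dbp exons overlap those of Sphk2 on the other strand by 539 bases, and Tef exons overlap those of Gm17597 by 193. Their differences between tables carry the same limit as that of Nr1d1. With age Dbp had a log2 fold change of 1.04 ± 0.41 on ND (adjusted p = 0.113) and of -0.72 ± 0.41 on HFD (adjusted p = 0.252), the same pair of signs as Per3, and neither passed. The median of the 4 was 0.22 with age on ND and -0.43 with age on HFD, beside 0.0198 and -0.000748 for all genes.

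Rora, a ROR receptor gene whose product activates Arntl through the RORE, was lower with HFD in old mice (-0.41 ± 0.15, adjusted p = 0.0413), a call lost when any 1 of 6 libraries was left out (adjusted p of at most 0.117), namely young ND replicate 2, old ND replicates 4 and 5 and old HFD replicates 2, 3 and 4. Rora exons overlap those of Gm15511 on the other strand by 82 bases, so its difference between tables carries the limit given for Nr1d1. Of the 7 other repressors and cofactors, none was called with age on either diet, where 11.4% (ND) and 18.1% (HFD) of all genes were. Ciart, an E-box-driven repressor also called Chrono, was 4.5-fold higher with HFD in young mice (2.17 ± 0.46, adjusted p = 0.00157). Its counts were low, at 7 to 55 per library in young ND. Timeless was higher with HFD in young (1.13 ± 0.17) and old mice (1.30 ± 0.17), as was Nono (0.59 ± 0.06 and 0.68 ± 0.06), and Timeless exons overlap those of Gm26847 on the other strand by 111 bases. Of the 9 kinases and ubiquitin ligases that set the stability of PER and CRY, none was called with age within a diet, beside the same shares. Fbxl21 was higher with HFD at both ages, but it was counted over a different transcript in each table.

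Of 20 rhythmic liver outputs, 3 were called with age on ND, where 11.4% of all genes were, and 5 with age on HFD, where 18.1% were. Noct, which encodes nocturnin, rose with age on both diets, by 2.18 ± 0.46 on ND (adjusted p = 0.00918) and 1.95 ± 0.43 on HFD (adjusted p = 0.00586). Nampt, the rate-limiting enzyme of NAD salvage and a target of the activators, rose with age on ND (0.47 ± 0.10, adjusted p = 0.00641), and Elovl3, a fatty acid elongase, fell (-1.39 ± 0.32, adjusted p = 0.0124). On HFD, Gys2, the liver glycogen synthase, fell with age (-0.72 ± 0.12, adjusted p = 0.00078), as did Mfsd2a (-1.86 ± 0.45, adjusted p = 0.0106) and Coq10b (-0.71 ± 0.20, adjusted p = 0.0191), and 1 further gene, Ppard, rose, a call lost without young HFD replicates 1, 3 or 4 or old HFD replicates 3 or 4. In young mice 8 of 20 were called between the diets, 5 higher and 3 lower, beside 20.1% of all genes, and the count was 5 to 8 without single libraries. Wee1, a kinase gene under E-box control, was higher (1.50 ± 0.35, adjusted p = 0.00411), as was Mfsd2a (2.08 ± 0.46, adjusted p = 0.00335), and Elovl3 was lower (-1.79 ± 0.32, adjusted p = 0.00038). In old mice 1 of 20 was higher, the cell cycle inhibitor gene Cdkn1a (1.71 ± 0.31, adjusted p = 0.000378), and 4 were lower, among them Elovl3 (-1.21 ± 0.32, adjusted p = 0.00937), beside 32.1% of all genes called. Cdkn1a exons overlap those of AC167363.2 on the other strand by 273 bases, and Elovl3 exons overlap those of Pitx3 by 10. Their differences between tables carry the limit given for Nr1d1.

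Genes that respond to feeding and to glucocorticoid, which also vary over the day in liver, were listed beside the clock genes. Of the fasting and feeding genes, Insig2 was lower with age on ND (not without young ND replicate 3), and those lower with age on HFD included G6pc (-1.75 ± 0.34, adjusted p = 0.00223), Srebf1 (-1.04 ± 0.18, adjusted p = 0.000826) and Fasn (-1.50 ± 0.42, adjusted p = 0.0214). The call of Fasn was lost without old HFD replicates 2 or 4 (adjusted p of at most 0.0811). Between the diets, 1 of 12 was called in young mice, Fgf21, which was higher (1.66 ± 0.45, adjusted p = 0.0125), beside 20.1% of all genes. In old mice 5 of 12 were lower, with the largest changes in Pnpla3, Fasn, Scd1 and G6pc, beside 12.8% of all genes. The call of Pnpla3 was lost without old ND replicates 1, 3 or 4 or old HFD replicates 1, 2 or 4, and the count was 3 without old ND replicate 1 or old HFD replicate 1. Of 7 glucocorticoid-induced genes, none was called with age on ND, beside 11.4% of all genes (2 without old HFD replicate 4, and 1 without young ND replicate 1, old ND replicates 2, 4 or 5 or old HFD replicate 3), and 3 rose with age on HFD, beside 11.6% of all genes, namely Mt2 (5.20 ± 1.24, adjusted p = 0.0094), Mt1 (4.19 ± 1.07, adjusted p = 0.0136) and Zbtb16 (2.54 ± 0.56, adjusted p = 0.00603). The summed level of the 7 ranged from 768 to 3574 CPM in old HFD with a median of 799, so a single liver set the upper end. Without old HFD replicate 4 the log2 fold change was 0.85 for Mt2 (adjusted p = 0.354), 0.52 for Mt1 (adjusted p = 0.558) and 2.05 for Zbtb16 (adjusted p = 0.0256), so the calls of Mt1 and Mt2 came from that liver. Between the diets, Sgk1 was higher (0.53 ± 0.13, adjusted p = 0.00536) and Zbtb16 lower (-1.67 ± 0.56, adjusted p = 0.0489) in young mice, the latter a call lost when any 1 of 12 libraries was left out. Mt1 and Mt2 were higher with HFD in old mice, but neither passed without old HFD replicate 4 (adjusted p = 0.144 and 0.153). Mt2 exons overlap those of Gm45774 on the other strand by 432 bases, so its difference between tables carries the limit given for Nr1d1. Of 8 heat shock and cold-inducible genes, Cirbp rose (not without young ND replicate 4) and Hsph1 fell with age on ND, where 11.4% of all genes were called. None was called with age on HFD, where 18.1% of all genes were. With HFD, 4 were higher in young mice and 6 in old mice, where 13.8% and 19.3% of all genes were higher. The largest of these in old mice were Hspa1a (3.08 ± 0.32), Hsp90aa1 (2.21 ± 0.14), Hspa8 (2.09 ± 0.14) and Rbm3 (0.93 ± 0.10), which kept their calls without any single library, while the other 2 calls were lost without old HFD replicate 4. Hspa1a had low counts in old ND, at 4 to 11 per library. The exons of Hspa1a overlap those of Gm20481 by 564 bases and those of Rbm3 overlap Rbm3os by 94, both on the other strand, so their differences between tables carry the limit given for Nr1d1. Whether feeding state or stress at collection had a part in the differences of the clock genes was not tested.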

How the data were processed

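Poly(A) RNA of 18 whole livers was measured, 1 library per mouse. Per the labels, STAR aligned the reads to mm10 (GRCm38), and the deposited values are raw counts, each summed over the exons of a single RefSeq transcript. Per the file headers HOMER made the counts, while the methods of the study name HTSeq. The headers record strand-specific counting for ND only. For the normal diet, the series record and the methods of the study name different products. Groups were taken from the labelled age and diet. Replicates are separate mice.

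From the counts, filterByExpr left 14275 genes, TMM scaled the libraries, and all 4 groups entered 1 edgeR 4.0.16 quasi-likelihood model in R 4.3.3 with robust estimation and no covariate. Contrasts were two-sided, adjusted over all genes with the Benjamini-Hochberg method and called at 0.05. Log2 CPM used a prior count of 2. FPKM was computed from CPM and the transcript length. Exon overlap was read with bedtools 2.31.1. Totals of 20253719 to 36427856 counts limit the precision of low genes such as Npas2. In data simulated for age on ND over 14077 genes, 12% of genes changed 1.5-fold, 59.2% of those changed 2-fold and 98% of those changed 3-fold were recovered. The simulation changed 200 genes and gave all genes the same spread, so these rates need not hold for a single clock gene. Alternative fits used DESeq2 1.42.0 and voom with quality weights from limma 3.58.1, non-robust estimation, other scalings and filters, fits to the compared groups alone, a replicate block and leaving out each library. The text names all 10 clock genes, of each list up to 4 called genes of largest change per comparison, and the 5 genes most and least like Arntl. Ppard, and Dbp and Tef where not called, fall outside this rule and were chosen with their values known. Some genes of the lists are not reported here. The genes and lists were chosen with earlier results of these data known.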

Additional observations from a re-analysis of the deposited data

Results flagged for a closer look

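In each of the 4 groups, the library farthest from the others was tested for each of the 10 genes and for the difference of arms, by the gap to its nearest neighbour over the range of the group. Chance marks about 1 in 20 such groups, and 3 of 40 gene and group combinations were marked. Cry1 was highest in young HFD replicate 2, at 11.1 CPM, when the other 4 libraries lay at 5.73 to 7.12. Nr1d2 was highest in young HFD replicate 3, at 122.7 CPM, when the others lay at 105.6 to 109.8. Nr1d2 was lowest in old HFD replicate 4, at 71.1 CPM, when the others lay at 105.3 to 108.6. That library, which also had the highest share of aligned tags counted (82.7%), was lowest of its group in Nr1d1 (80.6 CPM) and Per3 (8.34 CPM) and highest in Arntl (20.4 CPM), Npas2 (3.33 CPM), Per1 (31.7 CPM) and Per2 (29.9 CPM).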

How the results depend on the processing

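Of 1660 refits of 60 gene results, 1547 kept direction and side of the threshold, 36 lost the call, 54 gained one and 23 changed direction. Among the gains, Per2 with age on HFD passed in 12 of 28 alternatives and Per3 with age on ND in 6. Shares of all genes called were computed for the reported fit only, so the counts below under other fits have none beside them. The number of the 10 genes called with age on ND was 1 in the reported fit and 2 with DESeq2, voom, non-robust estimation and a fit of the compared groups alone, and leaving out single libraries gave 0 to 3. With age on HFD it was 1 in the reported fit, 3 with DESeq2 and voom, 2 with non-robust estimation, DESeq2 size factors, TMM from genes with no opposite-strand exon and the compared groups alone, and 0 to 3 without single libraries. Averaged over diets it was 0, then 1 with DESeq2 and with the replicate block, 3 with voom, and 0 to 3 without single libraries. With HFD in old mice it was 3, then 1 in the compared groups alone and 1 to 3 without single libraries. For the interaction it was 0, then 4 with DESeq2, 1 with voom and 0 to 1 without single libraries. With HFD in young mice it was 7, then 9 with voom, 6 with the replicate block, 5 in the compared groups alone and 5 to 8 without single libraries.

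With HFD in young mice Cry2 had a log2 fold change of -0.030 under upper-quartile scaling, and -0.025 to 0.082 without single libraries. With HFD in old mice Cry1 was 0.026 under voom and 0.077 with the replicate block, and -0.26 to 0.23 without single libraries, and Cry2 was -0.11 to 0.0044. Without single libraries the log2 fold change with age on ND was -0.52 to 0.037 for Per1 and -0.38 to 0.046 for Per2, with age on HFD -0.021 to 0.12 for Clock and -0.056 to 0.31 for Cry1, and averaged over diets -0.093 to 0.16 for Npas2 and -0.029 to 0.21 for Per3. The difference of arms with HFD in old mice was -0.0067 to 0.43. The causes were not tested.

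The correlation of deviations with Arntl was for Clock 0.658 in ND, 0.652 in HFD and 0.443 without the 2 farthest libraries, for Npas2 0.787, 0.592 and 0.334, for Per3 -0.718 in HFD and for Cry1 0.914 in HFD, each no longer passing, and for Per1 -0.262 in ND and -0.0574 without the farthest libraries. Samples with the same replicate number had correlations of deviations of -0.173 to 0.250, and 5 of 16 were best with their own number. No pairing by number was thus detected, although a weak one could be missed. With the replicate block 1, 1, 6, 3 and 0 genes were called for age on ND, age on HFD, diet in young, diet in old and the interaction. Depth limits Npas2, at 17 to 81 counts.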
